A study of Mus musculus with 6 samples.

Results

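The 44 genes described here encode nuclear receptors, transcription factors that in many cases are switched by a small ligand. They were taken by name from the nuclear receptor superfamily, leaving out Nr1d1 and Nr1d2, and read from a table of 52636 gene identifiers. Of the 44, 34 had at least 10 counts summed over the 6 libraries, 4 had fewer but some counts, and 6 had none. The RNA came from endothelial cells isolated from mouse brain, cultured, and sorted as living cells that lacked CD45 and carried CD31 and VE-cadherin. The knockout group held 3 libraries of cells in which Erg and Fli1 were both deleted, and the control group held 3 libraries with the genotype Wild Type Control. All cultures, controls included, received 4-OHT (4-hydroxytamoxifen), the agent that induces the deletion. The labels do not give the recombinase or its promoter, whether controls carried it, the age of the mice, or whether the libraries of a group came from separate animals or cultures. P-values therefore measure only the spread between these libraries, which may be partly technical. By the sex genes given below, each group held libraries of both sexes, so no group came from a single animal. Libraries of the same sex in a group may still share an animal. In the fit without control 2, also given below, both remaining controls were male and may come from a single animal. The spread between those controls may then be technical only, and the knockouts set against them were of both sexes. Erg and Fli1 are ETS-family transcription factors active in endothelium.

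Nuclear receptors share a zinc-finger domain that reads short DNA sites and a ligand-binding domain that recruits coactivators or corepressors. Steroid receptors are held by Hsp90 chaperones and mostly act as pairs of the same protein, whereas receptors for thyroid hormone, retinoic acid, vitamin D, fatty acids and oxysterols pair with a retinoid X receptor. In endothelium, Nr2f2 (COUP-TFII) is known for venous identity, the glucocorticoid receptor for tightening the blood-brain barrier and restraining inflammation, and the NR4A genes for rapid induction by a stimulus.

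The libraries held 17274639 to 19410458 counts. Levels are given as CPM, a count scaled to a common library size after TMM normalisation, and each mean carries the SD over 3 libraries. A log2 ratio is the fitted log2 fold change of knockout over control, given with its standard error (SE). Erg had 70.2, 88.3 and 109 CPM in knockouts 1 to 3, against 656, 223 and 609.6 CPM in controls 1 to 3 (log2 fold change -2.48, edgeR adjusted p = 0.0137). Fli1 had 57.0, 68.5 and 66.7 CPM in knockouts, against 82.9, 64.1 and 92.1 CPM in controls (edgeR adjusted p = 0.181). Counts run over whole genes and include transcripts lacking any deleted exons. In the fit without control 2, both Erg and Fli1 were called as lower. Control 2 stood apart. Its 12 endothelial markers summed to 7397 CPM, against 3930.2 to 4800.5 CPM in knockouts and 16297 and 16243 CPM in controls 1 and 3. Its 12 fibroblast markers summed to 14602 CPM, against 1664 to 2895 CPM in knockouts and 473 and 1271 CPM in controls 1 and 3. Pericyte and smooth muscle markers, also 12, summed in it to 4301 CPM, against 782 to 1576 CPM in knockouts and 477 and 592 CPM in controls 1 and 3. No endothelial, fibroblast or pericyte marker was at 0 in all libraries, and Cdh5, which encodes VE-cadherin, had 1104 to 1406 CPM in knockouts and 2306 to 4957 CPM in controls. Leukocyte markers summed to at most 7.30 CPM in any library, with Tyrobp at 0 throughout. Astrocyte markers summed to 311 CPM in control 2, 112 and 163 CPM in controls 1 and 3, and 58.2 to 77.8 CPM in knockouts. Neuron markers summed to 67.2 CPM in control 2, 14.5 and 21.9 CPM in controls 1 and 3, and 52.7 to 77.4 CPM in knockouts. Oligodendrocyte markers summed to 42.3 to 75.7 CPM in controls and 25.0 to 29.4 CPM in knockouts. By Xist and Ddx3y, knockouts 2 and 3 and control 2 were female and the other libraries male. The mitochondrial share of counts was 1.65% to 1.89% in knockouts, against 3.05%, 1.92% and 2.79% in controls 1, 2 and 3. The calls are given with all libraries and without control 2, and a fit with a term for sex is named where it ends a call. That term was fitted with all libraries only, so calls made without control 2 were not tested with it. Control 2 was the only female control, so among controls the term cannot tell sex from what else sets control 2 apart. The part of other cell types and of the mitochondrial share in the results was not tested. In bulk samples, fewer cells of a type and less RNA per cell cannot be told apart.

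Nuclear receptor genes that passed the test were mostly higher in the knockout. Of 29 members that passed the filter on low counts, 9 rose, 1 fell and 19 did not pass (edgeR quasi-likelihood test, adjusted p under 0.05), where 24.7% of all 13901 tested genes were called, 13.1% as higher and 11.7% as lower. The genes that rose were Nr3c1, Esr1, Rora, Rorb, Nr1h2, Nr1h3, Rxra, Ppard and Nr2c2, and the gene that fell was Nr2f1. The median log2 fold change of the 29 members was 0.39, against 0.00 over all tested genes. In 14 of the 29 every knockout library lay above every control, a pattern held by 25.0% of all tested genes. In 1 of the 29 every knockout lay below every control, against 21.3% of all tested genes. Without control 2, 17 members rose, 5 fell and 8 did not pass of 30 tested, where 50.3% of 14178 genes were called, 25.5% as higher and 24.8% as lower. The median was then 0.42, against 0.00 over all genes. In that fit 20 of the 30 had every knockout above both controls, against 37.6% of all genes, and 5 had every knockout below both, against 32.3%. All 10 members called with the 6 libraries were called in the same direction without control 2. When any 1 of the other 5 libraries was left out instead, 3 to 6 members were called, where 9.46% to 12.6% of all tested genes were called, and Esr1, Nr3c1 and Ppard were called each time. The 8 members that did not pass without control 2 were Rxrb, Pparg, Nr2c1, Nr2f6, Esrra, Nr3c2, Rarb and Nr1h4, with adjusted p of 0.131 to 0.867 (edgeR).

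**Figure D1:**
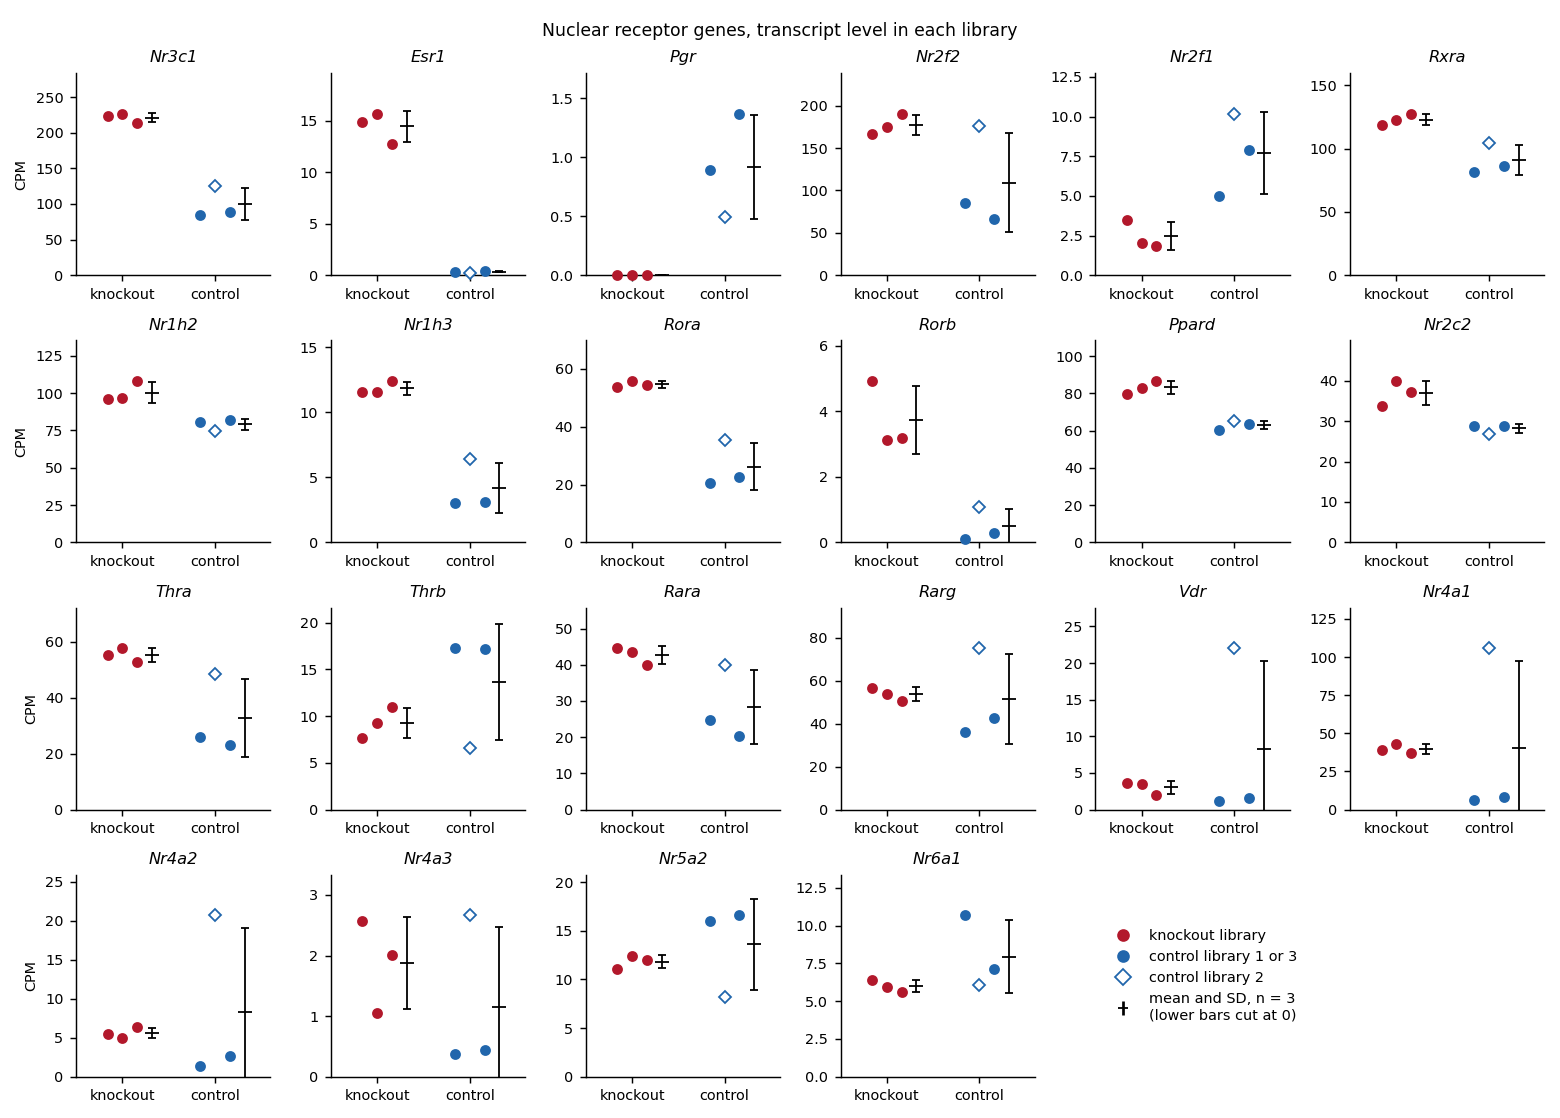
Transcript level in CPM (vertical axes, linear from 0) of 22 nuclear receptor genes in each knockout library and each control library, with control 2 as an open diamond and the mean and SD of each group in black. Esr1 lies at 12.8 to 15.7 CPM in knockouts and at 0.272 to 0.438 CPM in controls. For Nr4a1, Nr4a2, Nr4a3, Vdr, Rarg and Nr2f1 control 2 lies above all other libraries.

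**Figure D2:**
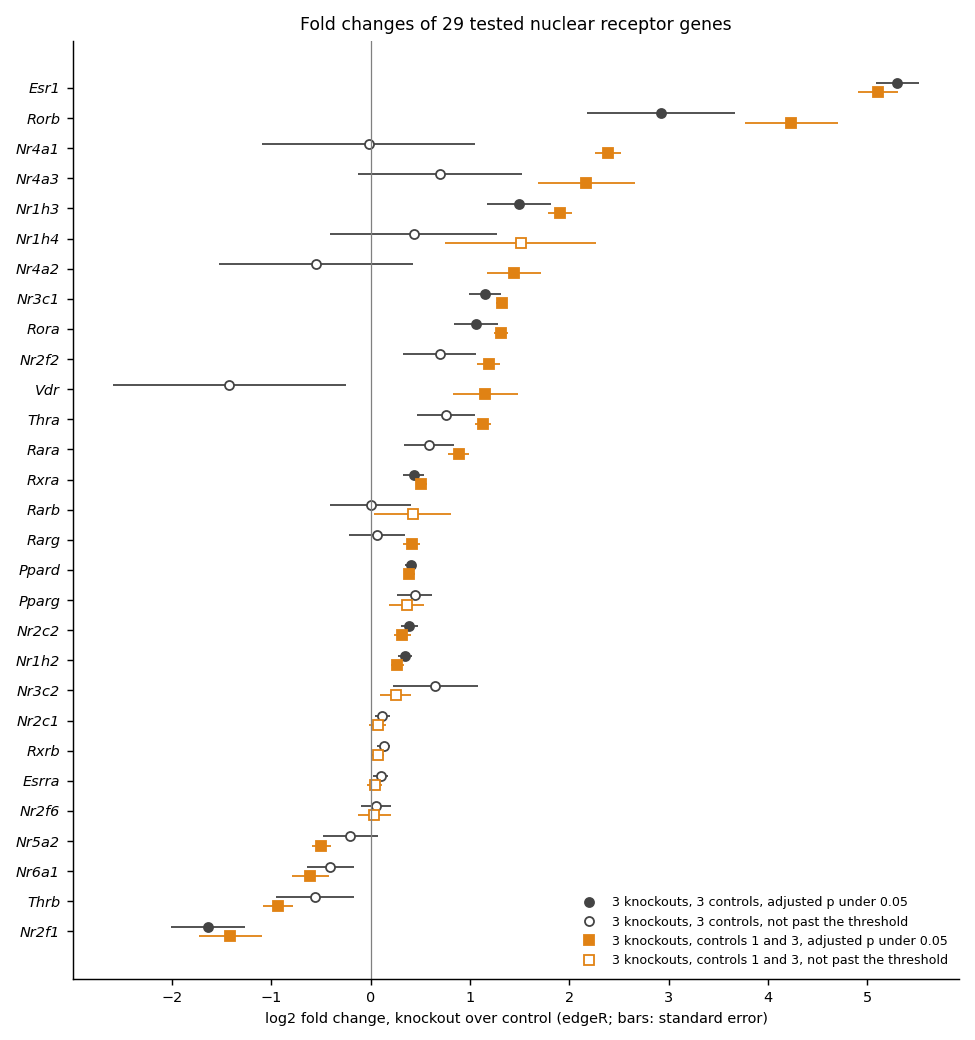
Log2 fold change of knockout over control (horizontal axis) with its standard error for 29 nuclear receptor genes, fitted with all 6 libraries (circles) and without control 2 (squares); filled symbols had an adjusted p under 0.05. Only genes tested in both fits are drawn, which leaves out Pgr, called as lower without control 2. Among the genes drawn, Esr1 lies furthest to the right and Nr2f1 furthest to the left in both fits. Vdr, Nr4a1 and Nr4a2 lie left of 0 with all libraries and right of 0 without control 2.

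Among the steroid receptors, the genes for the glucocorticoid receptor and oestrogen receptor alpha rose, and the progesterone receptor gene had no count in any knockout library. Nr3c1 (ENSMUSG00000024431), the glucocorticoid receptor gene, had 223, 227 and 214 CPM in knockouts, against 84.1, 126 and 89.0 CPM in controls. The groups did not overlap, and control 2 was the highest control. The mean was 221 ± 6.82 CPM in knockouts and 99.6 ± 22.8 CPM in controls, a log2 ratio of 1.15 with SE 0.16 (edgeR adjusted p = 0.00722). The fit without control 2 gave 1.32 (SE 0.05, edgeR adjusted p = 5.99e-06).

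Esr1 (ENSMUSG00000019768; GRCm38 chromosome 10, 4611593 to 5005614, plus strand), encoding oestrogen receptor alpha, had 14.9, 15.7 and 12.8 CPM in knockouts, against 0.369, 0.272 and 0.438 CPM in controls. These levels rest on 290, 281 and 229 counts in knockouts and 7, 5 and 8 counts in controls. Every control, control 2 included, lay far below every knockout. The fitted log2 ratio was 5.30 with SE 0.22 (edgeR adjusted p = 4.23e-04), and the ratio of the summed counts, scaled by library size, was 40.2 with a 95% exact interval of 25.8 to 66.1 that covers counting error only. Recombinases switched by 4-OHT commonly carry a ligand-binding domain taken from oestrogen receptor alpha. As the labels do not say which cultures carried one, reads from Esr1 itself and reads from such a transgene cannot be told apart. Esr2, encoding oestrogen receptor beta, had 3, 2 and 1 counts in knockouts and 0, 9 and 0 counts in controls, too few to pass the filter.

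Pgr, the progesterone receptor gene and a known oestrogen-responsive gene of reproductive tissue, had 0 counts in each knockout library, against 17, 9 and 25 counts (0.896, 0.490 and 1.37 CPM) in controls. It was named after its values were seen. Set against 3 counts over the knockout group, the limit that a count of 0 allows, its level was 16.9-fold lower in knockouts. That figure leaves out the error of the control counts. The 95% exact interval of the ratio of knockout over control reached up to 0.0754. Pgr did not pass the filter with all libraries. It was lower with a filter of 10 summed counts (edgeR adjusted p = 0.0204) and when tested without control 2 (edgeR adjusted p = 0.00219). The mineralocorticoid receptor gene Nr3c2 had 5.08 ± 0.316 CPM in knockouts and 3.22 ± 1.66 CPM in controls, where control 2 was the lowest library, and it did not pass (edgeR adjusted p = 0.313). Esrra, an orphan receptor gene known for controlling mitochondrial energy metabolism, had 38.3, 34.9 and 35.2 CPM in knockouts, against 33.0, 32.5 and 35.5 CPM in controls. Its groups overlapped (edgeR adjusted p = 0.359). Its relatives Esrrb and Esrrg had 10 and 18 counts over all libraries and were not tested.

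Start regions are shown for Esr1 and Pgr here, and below for Nr1h3, Rorb and Nr2f1, as members with large differences between the groups, because ETS factors such as Erg and Fli1 bind DNA around a GGAA core. RefSeq promoter windows (GRCm38.p6, 250 bases before to 50 after a start, read 5′ to 3′ on the gene's strand) were found for 40 of the 44 members, and the letters AGGAAG were searched on both strands, where the other strand reads CTTCCT. They stood in 35.4% of all 32851 windows and in 19 of 51 windows of members with at least 10 counts. For members called with all libraries they stood in 5 of 14 windows, from 3 of 9 genes, near the share of all windows. The longer letters CAGGAAGT, which contain AGGAAG, stood in 3.33% of all windows and in 2 of the 51 (Rorb and Thrb), and CCGGAAGT in 3.89% of all windows and in 1 of the 51 (Nr1h2). A match describes letters only, and binding was not measured here. In the first of 2 listed starts of Esr1, chr10:4611739-4612038 on the plus strand, the match begins 89 bases before the start. In the single window of Pgr, chr9:8899583-8899882 on the plus strand, it lies 39 bases before it. Capitals mark AGGAAG or CTTCCT.
Esr1: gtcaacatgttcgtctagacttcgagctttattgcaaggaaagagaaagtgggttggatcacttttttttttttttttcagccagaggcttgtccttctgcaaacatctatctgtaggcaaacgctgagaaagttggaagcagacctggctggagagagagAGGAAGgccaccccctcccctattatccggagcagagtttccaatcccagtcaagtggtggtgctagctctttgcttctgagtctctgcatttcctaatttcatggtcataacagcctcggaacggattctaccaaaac
Pgr: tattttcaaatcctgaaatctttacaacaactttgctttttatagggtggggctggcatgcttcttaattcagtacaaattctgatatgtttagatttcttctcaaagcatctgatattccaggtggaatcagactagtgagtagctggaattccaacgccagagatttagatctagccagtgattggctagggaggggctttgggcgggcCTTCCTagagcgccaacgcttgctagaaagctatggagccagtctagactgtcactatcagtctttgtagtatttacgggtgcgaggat

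Of the 11 chaperone genes that fold and hold steroid receptors, 3 rose, 0 fell and 8 did not pass, with a median log2 fold change of -0.04. Stip1, the adaptor between Hsp70 and Hsp90, had 292, 322 and 289 CPM in knockouts, against 175, 169 and 179.5 CPM in controls (log2 fold change 0.79, edgeR adjusted p = 0.00224). Fkbp5, a co-chaperone of Hsp90 that is itself a known glucocorticoid target, had 43.8, 54.6 and 49.4 CPM in knockouts, against 27.9, 36.4 and 30.7 CPM in controls (log2 fold change 0.64, edgeR adjusted p = 0.0220). The inducible Hsp90 gene Hsp90aa1 rose by 0.41 on the log2 scale (edgeR adjusted p = 0.0156). Without control 2, 3 chaperone genes rose and 5 fell, 72.7% called against 50.3% of all tested genes (27.3% against 24.7% with all libraries). Of 15 tested genes known as glucocorticoid receptor targets, 4 rose, 1 fell and 10 did not pass, with a median of 0.64. Fkbp5 is counted there too. Nfkbia, the inhibitor of NF-kB, had 292, 292 and 299.9 CPM in knockouts, against 135, 113 and 133 CPM in controls (log2 fold change 1.21, edgeR adjusted p = 0.00141). Ddit4, an inhibitor of mTORC1 signalling, rose by 1.28 (edgeR adjusted p = 0.00883) and the kinase gene Sgk1 by 0.68 (edgeR adjusted p = 0.0104). The gene of the list that fell was Cdkn1a, a cell-cycle inhibitor, with a log2 fold change of -0.29 (edgeR adjusted p = 0.0302). Tsc22d3, a widely used glucocorticoid reporter gene, did not pass, with a log2 fold change of -0.81 with all libraries and -0.31 without control 2; it was named after its values were seen. Without control 2, 10 of the 15 rose and 1 fell, with a median of 0.77; the share called as higher over all tested genes was 13.1% with all libraries and 25.5% without control 2.

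Of the COUP-TF genes, Nr2f1 fell, while Nr2f2 did not pass with all libraries and passed as higher without control 2. Nr2f1 (GRCm38 chromosome 13, 78188973 to 78199757, minus strand), encoding COUP-TFI, had 3.49, 2.06 and 1.84 CPM in knockouts, against 5.01, 10.2 and 7.89 CPM in controls. The groups did not overlap. Its log2 ratio was -1.64 with SE 0.37 (edgeR adjusted p = 0.0277), and -1.41 (SE 0.32, edgeR adjusted p = 0.00969) without control 2. The call was lost without control 3, knockout 2 or knockout 3, where the adjusted p reached 0.112 (edgeR). With a term for sex Nr2f1 stood at -1.63 and did not pass (edgeR adjusted p = 0.0530), which left no member called as lower in that fit. Nr2f2, encoding COUP-TFII, had 166, 175 and 190.5 CPM in knockouts, against 84.7, 176 and 66.8 CPM in controls. Control 2 lay among the knockouts and the other controls below them. The log2 ratio was 0.70 with SE 0.37 (edgeR adjusted p = 0.216), and 1.19 (SE 0.11, edgeR adjusted p = 1.81e-04) without control 2. A gene on the opposite strand overlaps 7.46% of the Nr2f2 exon length, and the counting's use of strand is not given in the sources used here. Nr2f6 had 16.1, 12.1 and 17.2 CPM in knockouts and 13.6, 14.97 and 15.2 CPM in controls (edgeR adjusted p = 0.831), with 54.4% of its exon length overlapped by Ocel1 on the opposite strand. Neither listed Nr2f1 window holds AGGAAG, and the first, chr13:78198824-78199123 on the minus strand, is shown to set beside the others.
Nr2f1: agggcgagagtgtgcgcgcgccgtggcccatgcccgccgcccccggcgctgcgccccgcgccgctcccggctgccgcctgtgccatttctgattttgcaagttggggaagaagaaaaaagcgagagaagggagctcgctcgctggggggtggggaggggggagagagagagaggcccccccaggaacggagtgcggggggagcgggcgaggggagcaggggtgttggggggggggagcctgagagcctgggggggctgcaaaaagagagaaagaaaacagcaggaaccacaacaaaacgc

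Of 8 genes known from venous endothelium, 1 rose and 3 fell, with a median log2 fold change of -0.89. Tek, the angiopoietin receptor gene, had 22.3, 24.7 and 32.8 CPM in knockouts, against 114, 116 and 118 CPM in controls (log2 fold change -2.12, edgeR adjusted p = 0.00145). Emcn, a surface sialomucin gene, fell by 1.99 (edgeR adjusted p = 0.0428), and Flt4, encoding the VEGF-C receptor, fell by 1.71 (edgeR adjusted p = 0.0137). The gene that rose was Nrp2, a VEGF-C co-receptor gene, with a log2 fold change of 1.66, named after its value was seen. Without control 2, 3 of the 8 rose and 4 fell, 87.5% called against 50.3% of all tested genes (50% against 24.7% with all libraries). Of the 12 endothelial markers, 11 were lower in knockouts with all libraries. Tek and Emcn are in both lists, so the markers are not an independent comparison.

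**Figure D3:**
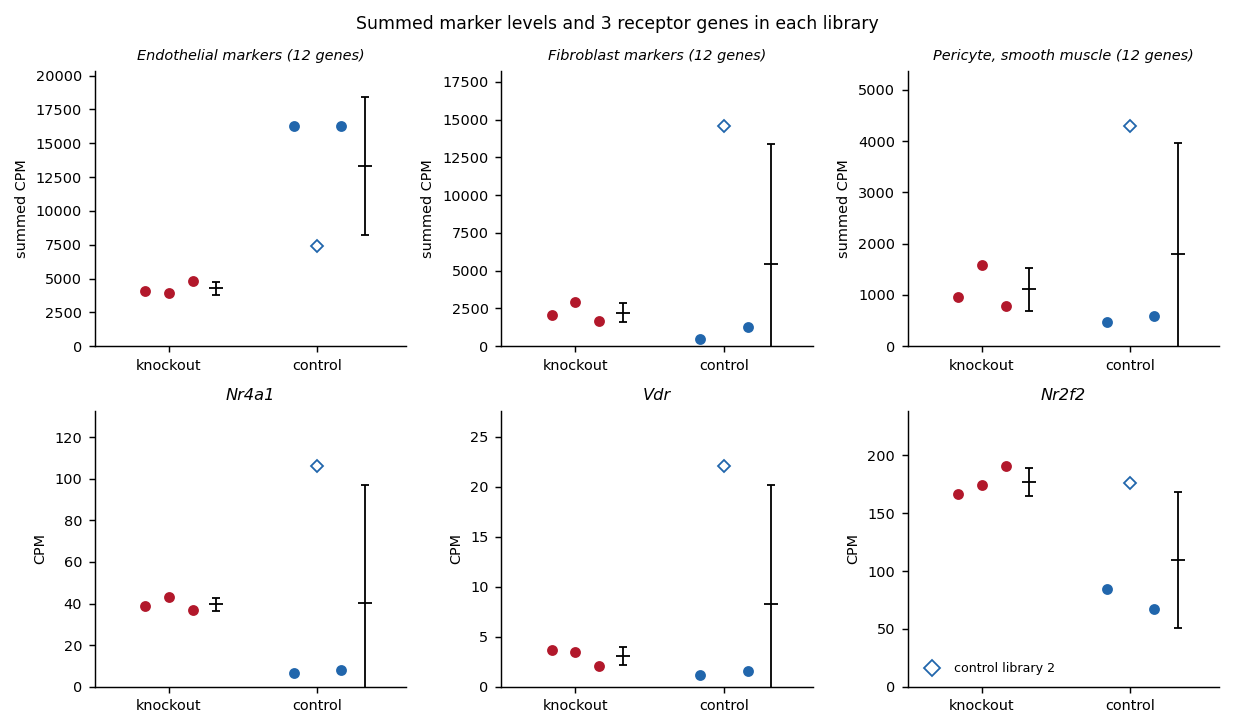
Summed CPM of endothelial, fibroblast, and pericyte and smooth muscle markers (upper row) and CPM of Nr4a1, Vdr and Nr2f2 (lower row) in each knockout and control library, with the mean and SD of each group in black. Control 2 (open diamond) is the highest library for the fibroblast and pericyte markers and for Nr4a1 and Vdr, and the lowest control for the endothelial markers.

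The retinoid X receptor gene Rxra and the fatty-acid receptor gene Ppard rose modestly in knockouts. Rxra, the common partner of the pairing receptors, had 119, 122 and 128 CPM in knockouts, against 81.8, 105 and 86.6 CPM in controls. The groups did not overlap (log2 ratio 0.43, SE 0.10, edgeR adjusted p = 0.0315; without control 2, 0.51 and 2.87e-04). Rxrb had 48.5, 49.9 and 53.3 CPM in knockouts, against 46.7, 44.5 and 47.3 CPM in controls, and did not pass (edgeR adjusted p = 0.204). Rxrg had 2 counts in all. Of the fatty-acid receptor genes, Ppard had 79.9, 83.0 and 86.7 CPM in knockouts, against 60.6, 65.0 and 63.3 CPM in controls. All knockouts were above all controls, control 2 lay with the other controls, and the log2 ratio was 0.40 with SE 0.06 (edgeR adjusted p = 0.00785), and 0.39 without control 2 (edgeR adjusted p = 0.00108). Pparg, the adipogenic member, had 5.57 ± 0.405 CPM in knockouts and 4.09 ± 0.691 CPM in controls (edgeR adjusted p = 0.118), and Ppara had 12 counts in all and was not tested. Of 15 tested genes known as PPAR targets, 2 rose, 2 fell and 11 did not pass, with a median of 0.15. Plin2, which coats lipid droplets, had 635, 636 and 572 CPM in knockouts, against 229.7, 202 and 226 CPM in controls (log2 fold change 1.49, edgeR adjusted p = 9.91e-04). Ucp2, a mitochondrial carrier gene, rose by 2.07 (edgeR adjusted p = 0.00611). Acaa2, of fatty-acid oxidation, had a log2 fold change of -0.53 (edgeR adjusted p = 0.0254), and the other gene that fell was Vldlr, a lipoprotein receptor gene, at -0.41. Without control 2, 4 of the 15 rose and 4 fell, 53.3% called against 50.3% of all tested genes (26.7% against 24.7% with all libraries).

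Both oxysterol (LXR) receptor genes rose. Nr1h3 (GRCm38 chromosome 2, 91184061 to 91202834, minus strand), encoding LXR alpha, had 11.6, 11.5 and 12.4 CPM in knockouts, against 3.06, 6.43 and 3.12 CPM in controls. The knockouts lay close together above all controls. The fitted log2 ratio was 1.49 with SE 0.32 (edgeR adjusted p = 0.0237), and 1.90 (SE 0.12, edgeR adjusted p = 3.18e-05) without control 2. Nr1h2, encoding LXR beta, had 96.3, 96.5 and 108 CPM in knockouts, against 80.5, 74.8 and 82.0 CPM in controls, again without overlap (log2 ratio 0.34, SE 0.07, edgeR adjusted p = 0.0216; without control 2, 0.27 and 0.0134). The calls of Nr1h3, Nr1h2 and Rxra were each lost when any 1 library other than control 2 was left out, with adjusted p up to 0.0831, 0.0841 and 0.107 (edgeR). The bile acid receptor gene Nr1h4 was at 0.308 to 0.837 CPM in knockouts and 0.0527 to 0.871 CPM in controls (edgeR adjusted p = 0.737). In the first of 2 listed starts of Nr1h3, chr2:91195067-91195366 on the minus strand, CTTCCT lies 243 bases before the start, and in the second window AGGAAG lies 11 bases after it.
Nr1h3: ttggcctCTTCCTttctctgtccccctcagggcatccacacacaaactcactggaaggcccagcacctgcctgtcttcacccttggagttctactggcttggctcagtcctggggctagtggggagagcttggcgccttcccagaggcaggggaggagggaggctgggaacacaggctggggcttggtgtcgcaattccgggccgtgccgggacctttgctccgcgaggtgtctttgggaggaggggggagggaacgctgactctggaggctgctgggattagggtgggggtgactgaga

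Of 12 tested genes known as LXR targets, 3 rose, 2 fell and 7 did not pass, with a median of 0.05. Apoe, a lipoprotein component, had 281, 336 and 297 CPM in knockouts, against 120.0, 31.1 and 75.4 CPM in controls (log2 fold change 2.01, edgeR adjusted p = 0.0303). Abcg1, a cholesterol exporter gene, had 11.2, 10.3 and 16.2 CPM in knockouts, against 92.8, 46.1 and 109 CPM in controls (log2 fold change -2.72, edgeR adjusted p = 0.00666). These LXR targets lay on opposite sides. Smpdl3a, encoding a phosphodiesterase, fell by 2.47 (edgeR adjusted p = 0.00316). Mylip, whose product degrades the LDL receptor, and Lpcat3, a phospholipid-remodelling enzyme gene, rose by 1.31 and 0.60 (edgeR adjusted p = 0.0136 and 0.00956), both named after their values were seen. Without control 2, 4 of the 12 rose and 3 fell, 58.3% called against 50.3% of all tested genes (41.7% against 24.7% with all libraries).

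**Figure D4:**
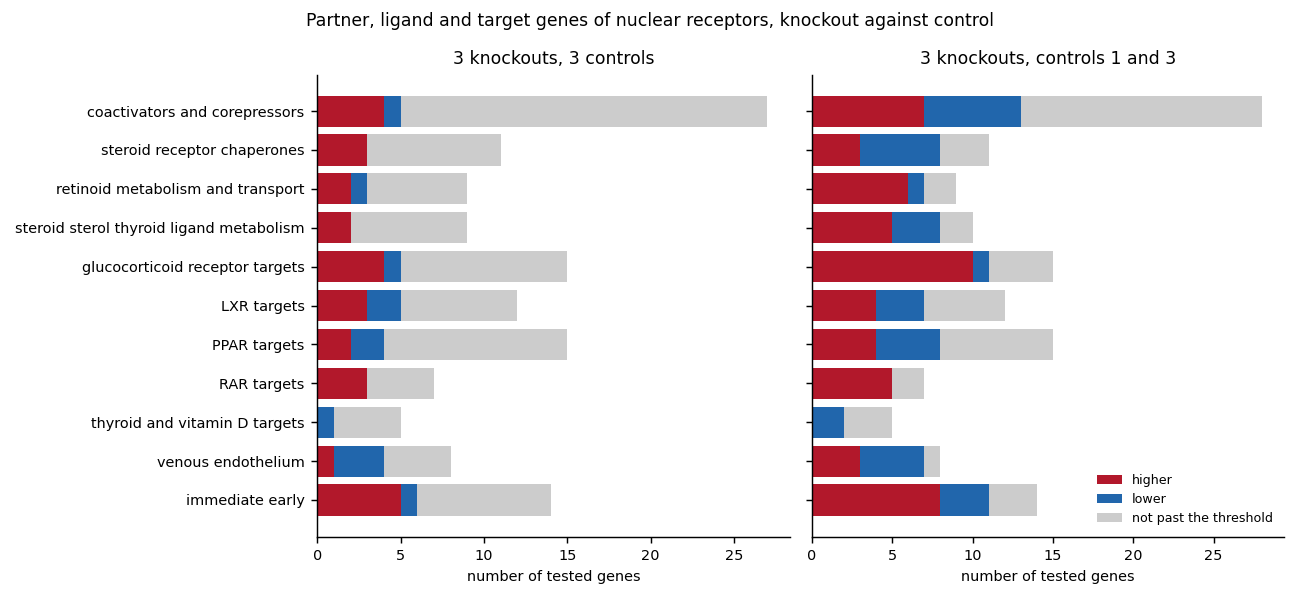
Number of tested genes (horizontal axes) in each list of partner, ligand or target genes that were higher, lower or not past an adjusted p of 0.05 in knockouts against controls, with all libraries on the left and without control 2 on the right. The glucocorticoid target list has 4 higher and 1 lower of 15 with all libraries and 10 higher and 1 lower without control 2, where the share of all tested genes called is 24.7% with all libraries and 50.3% without control 2.

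Both listed genes of retinoic acid receptor-related orphan receptors rose. Rora, known for control of clock and lipid genes, had 53.6, 55.8 and 54.4 CPM in knockouts, against 20.4, 35.6 and 22.6 CPM in controls. The groups did not overlap (log2 ratio 1.06, SE 0.22, edgeR adjusted p = 0.0206; without control 2, 1.31 and 1.54e-05). The call was lost without control 3 or any 1 knockout library, with adjusted p up to 0.0794 (edgeR). Rorb (GRCm38 chromosome 19, 18930605 to 19111196, minus strand), known from retina and brain, had 96, 56 and 57 counts in knockouts, against 2, 20 and 5 counts in controls. These are 4.93, 3.12 and 3.17 CPM in knockouts and 0.105, 1.09 and 0.274 CPM in controls, and control 2 was the highest control. Its log2 ratio was 2.92 with SE 0.75 (edgeR adjusted p = 0.0384), and 4.23 (SE 0.46, edgeR adjusted p = 3.42e-04) without control 2. Rorb was named after its values were seen, and its call was lost without any 1 library other than control 2, with adjusted p up to 0.123 (edgeR). With a term for sex it stood at 2.93 (edgeR adjusted p = 0.0579). Its first listed start, chr19:19111147-19111446 on the minus strand, has AGGAAG 57 bases before the start, and its second has matches 127 and 115 bases before it.
Rorb: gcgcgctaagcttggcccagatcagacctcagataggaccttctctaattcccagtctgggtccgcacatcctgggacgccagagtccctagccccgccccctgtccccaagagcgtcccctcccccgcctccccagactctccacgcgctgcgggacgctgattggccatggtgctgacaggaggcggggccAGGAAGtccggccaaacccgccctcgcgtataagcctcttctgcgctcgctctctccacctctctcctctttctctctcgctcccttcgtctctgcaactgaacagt

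Neither thyroid hormone receptor gene passed with all libraries, and without control 2 Thra rose and Thrb fell. Thra had 55.2, 57.7 and 52.6 CPM in knockouts, against 25.9, 48.6 and 23.2 CPM in controls, with control 2 nearest the knockouts. The log2 ratio was 0.76 with SE 0.29 (edgeR adjusted p = 0.112), and 1.13 (SE 0.08, edgeR adjusted p = 4.17e-05) without control 2. Nr1d1 on the opposite strand overlaps 5.7% of the Thra exon length. Thrb had 7.71, 9.21 and 10.9 CPM in knockouts, against 17.3, 6.53 and 17.2 CPM in controls. Here control 2 was the lowest library, and the log2 ratio was -0.56 with SE 0.39 (edgeR adjusted p = 0.340) with it and -0.93 (SE 0.15, edgeR adjusted p = 0.00211) without it. Of 9 tested genes for the supply or breakdown of steroid, sterol and thyroid ligands, 2 rose and 0 fell, with a median of 0.57. Cyp7b1, an oxysterol hydroxylase gene that rose and was named after its value was seen, was at 4.64 ± 1.71 CPM in knockouts and 0.994 ± 0.748 CPM in controls (edgeR adjusted p = 0.0432). Without control 2, 5 of 10 rose and 3 fell, 80% called against 50.3% of all tested genes (22.2% against 24.7% with all libraries). Of 5 tested thyroid hormone or vitamin D targets, 0 rose and 1 fell, which was Cdkn1a, with a median of -0.35. Without control 2, 0 of the 5 rose and 2 fell, 40% called against 50.3% of all tested genes (20% against 24.7% with all libraries).

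Of the retinoic acid receptor genes, none passed with all libraries, and Rara and Rarg were higher without control 2. Rara had 44.7, 43.5 and 40.0 CPM in knockouts, against 24.7, 40.0 and 20.4 CPM in controls (edgeR adjusted p = 0.146). The fit without control 2 put it at 0.89 with SE 0.10 (edgeR adjusted p = 4.90e-04). Rarg had 56.7, 54.0 and 50.5 CPM in knockouts, against 36.2, 75.3 and 42.6 CPM in controls, so that control 2 was the highest library of all (edgeR adjusted p = 0.886; 0.41 and 0.00665 without control 2). Rarb was at 0.558 to 0.891 CPM in knockouts and 0.474 to 1.14 CPM in controls (edgeR adjusted p = 0.998). Gm48162 and Top2b on the opposite strand overlap 38.4% of the Rarb exon length, so its few counts may include reads from them. Of 9 tested retinoid metabolism and transport genes, 2 rose and 1 fell, with a median of 0.24. Rdh10, which oxidises retinol, had 44.0, 38.8 and 45.0 CPM in knockouts, against 11.7, 27.3 and 12.7 CPM in controls (log2 fold change 1.31, edgeR adjusted p = 0.0422). The gene that fell was Aldh1a2, a retinaldehyde dehydrogenase gene named after its value was seen, at 0.531 ± 0.380 CPM in knockouts and 3.52 ± 1.91 CPM in controls (edgeR adjusted p = 0.0342). Without control 2, 6 of the 9 rose and 1 fell, with a median of 1.78. That is 77.8% called against 50.3% of all tested genes (33.3% against 24.7% with all libraries). Of 7 tested retinoic acid receptor targets, 3 rose and 0 fell, with a median of 0.69. Among those that rose were the transglutaminase gene Tgm2 (0.75, edgeR adjusted p = 0.0324) and the antiproliferative gene Btg2 (0.69, edgeR adjusted p = 0.00302), which is also in the immediate early list. Without control 2, 5 of the 7 rose, 71.4% called against 50.3% of all tested genes (42.9% against 24.7% with all libraries).

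The vitamin D receptor gene and the NR4A genes did not pass with all libraries and rose in the fit without control 2. Vdr had 3.65, 3.51 and 2.06 CPM in knockouts, against 1.16, 22.1 and 1.53 CPM in controls. The fit gave a log2 ratio of -1.42 with SE 1.17 (edgeR adjusted p = 0.417) with all libraries and 1.16 (SE 0.33, edgeR adjusted p = 0.0240) without control 2. Nr4a1 (Nur77) had 38.9, 43.1 and 37.1 CPM in knockouts, against 6.53, 106 and 8.28 CPM in controls. The knockouts lay together between control 2 and the other controls. The fitted log2 ratio was -0.02 with SE 1.07 (edgeR adjusted p = 0.992) with all libraries and 2.39 (SE 0.13, edgeR adjusted p = 1.72e-05) without control 2. Nr4a2 (Nurr1) had 5.55, 5.02 and 6.35 CPM in knockouts, against 1.42, 20.7 and 2.63 CPM in controls (edgeR adjusted p = 0.717), with a log2 fold change of 1.44 (edgeR adjusted p = 0.00445) without control 2. Nr4a3 (Nor1), named after its values were seen, had 2.57, 1.06 and 2.00 CPM in knockouts, against 0.369, 2.67 and 0.438 CPM in controls (edgeR adjusted p = 0.575). It also passed without control 2, with a log2 ratio of 2.17 with SE 0.49 (edgeR adjusted p = 0.00934).

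The NR4A genes belong to the immediate early genes. Of 14 other genes of that kind, 5 rose, 1 fell and 8 did not pass, with a median of 0.84. Fos had 183, 166 and 151 CPM in knockouts, against 10.01, 40.4 and 11.5 CPM in controls (log2 ratio 3.01, SE 0.59, edgeR adjusted p = 0.0178). Ier3, a survival-related early gene, had 547, 520.3 and 486 CPM in knockouts, against 172, 202 and 199.98 CPM in controls (log2 fold change 1.44, edgeR adjusted p = 0.00123). For both genes all knockouts lay above all controls. Junb rose by 1.55 (edgeR adjusted p = 0.0316), and the gene that fell was Atf3, a stress-induced factor gene, with a log2 fold change of -0.89, named after its value was seen. Without control 2, 8 of the 14 rose and 3 fell, 78.6% called against 50.3% of all tested genes (42.9% against 24.7% with all libraries).

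Among the remaining orphan receptor genes, Nr2c2 rose. Nr2c2 (TR4) had 33.8, 39.9 and 37.1 CPM in knockouts, against 28.9, 26.8 and 28.9 CPM in controls (log2 ratio 0.39, SE 0.09, edgeR adjusted p = 0.0256). Genes on the opposite strand overlap 31.2% of its exon length, and its call was lost without control 1, control 3, knockout 2 or knockout 3, with adjusted p up to 0.0924 (edgeR). It also did not pass with a term for sex, at 0.37 (edgeR adjusted p = 0.0611), and it passed without control 2, at 0.32 (edgeR adjusted p = 0.0201). Its relative Nr2c1 (TR2) had 24.4 ± 1.29 CPM in knockouts and 22.4 ± 0.573 CPM in controls (edgeR adjusted p = 0.281). Nr5a2 (LRH-1), known from liver and gonad, had 11.1, 12.4 and 11.97 CPM in knockouts, against 16.02, 8.22 and 16.6 CPM in controls. Control 2 was its lowest library, and the log2 ratio was -0.20 (edgeR adjusted p = 0.630) with all libraries and -0.50 (SE 0.10, edgeR adjusted p = 0.00472) without control 2. Nr6a1, known from germ cells and the embryo, had 6.42, 5.97 and 5.63 CPM in knockouts, against 10.7, 6.04 and 7.12 CPM in controls (edgeR adjusted p = 0.262; -0.60 and 0.0353 without control 2). Nr1i2, Nr1i3, Rxrg and Nr5a1 had 2, 7, 2 and 4 counts over all libraries, and Nr0b1, Nr0b2, Hnf4a, Hnf4g, Nr2e1 and Nr2e3 had 0.

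Coregulator genes were called at 18.5%, against 24.7% of all tested genes, and without control 2 at 46.4%, against 50.3%. Of 27 tested coactivator and corepressor genes, 4 rose, 1 fell and 22 did not pass, with a median of 0.08. Tbl1xr1, which encodes an exchange factor of the corepressor complex, had 144, 129 and 141 CPM in knockouts, against 68.0, 61.5 and 62.4 CPM in controls. All controls, control 2 included, lay below all knockouts, and the log2 ratio was 1.11 with SE 0.07 (edgeR adjusted p = 0.00116). Ncoa4, also known as the ferritin autophagy receptor, rose by 0.49 (edgeR adjusted p = 0.0132) and the coactivator gene Ncoa1 by 0.42 (edgeR adjusted p = 0.0379). The acetyltransferase gene Ep300 rose by 0.36, and the gene that fell was Tbl1x, the close relative of Tbl1xr1, at -0.27, both named after their values were seen. Without control 2, 7 of 28 rose and 6 fell.

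To compare levels between genes, CPM was divided by the kilobases of annotated exon. On that scale Nr1h2 ranked 1 in both groups, with 29.9 ± 2.03 CPM per kb in knockouts and 23.6 ± 1.13 CPM per kb in controls. Nr3c1 followed with 28.8 ± 0.887 CPM per kb in knockouts, where its libraries overlapped those of Nr1h2, and had 12.97 ± 2.96 CPM per kb in controls, where they did not. Rxra had 22.5 ± 0.824 CPM per kb in knockouts and 16.7 ± 2.20 CPM per kb in controls. Nr2f2 had 20.5 ± 1.42 CPM per kb in knockouts and 12.7 ± 6.82 CPM per kb in controls. In knockouts the libraries of Rxra and Nr2f2 overlapped and both genes lay below Nr3c1, while in controls the libraries of Rxra, Nr3c1 and Nr2f2 overlapped. Thra ranked 7 in knockouts and 10 in controls, and Nr1h3 ranked 14 in knockouts and 19 in controls.

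**Figure D5:**
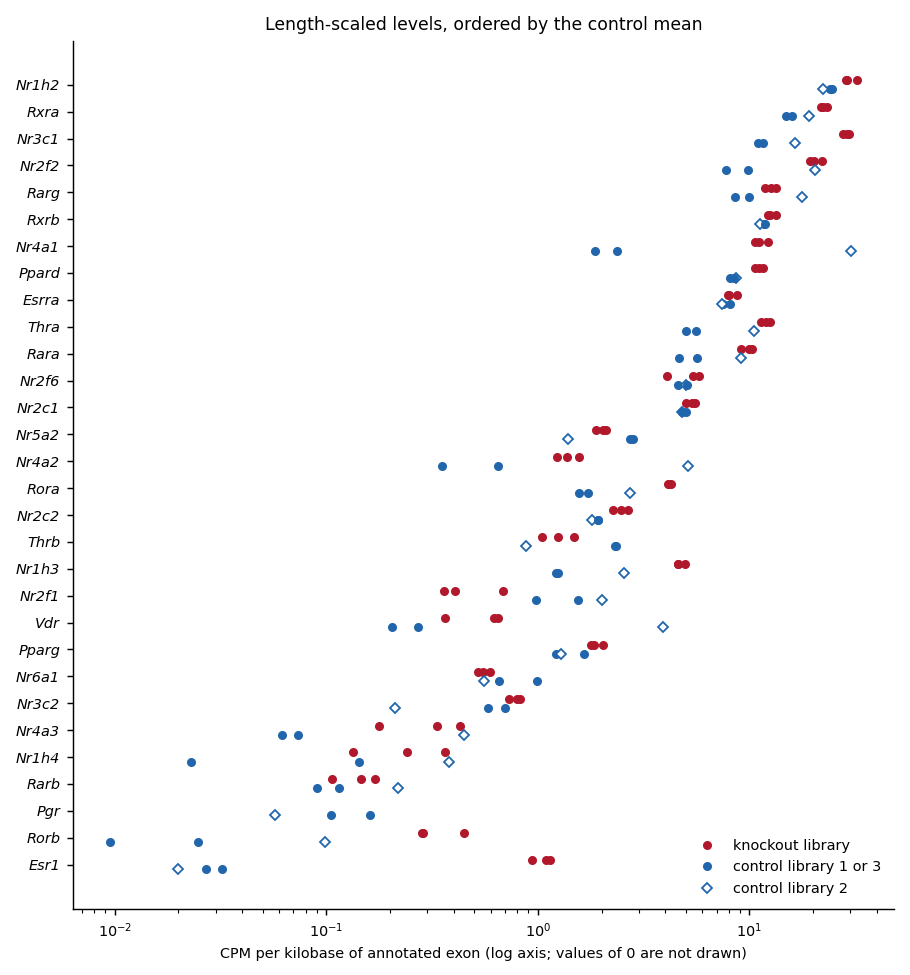
Level in CPM per kilobase of annotated exon (horizontal axis, log scale) of the 30 nuclear receptor genes whose mean reached 0.1 CPM per kb in either group, in every knockout and control library, ordered by the control mean; values of 0 are not drawn. Nr1h2 is at the top, and the knockout libraries of Esr1 lie far to the right of its control libraries.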

How the data were processed

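Gene counts of 6 libraries of polyadenylated RNA were analysed as the authors deposited them, as raw counts per Ensembl gene. Per the submitters' processing notes, reads were checked with FastQC 0.11.5, aligned with STAR 2.7.6a and referred to GRCm38, and per the labels' protocols libraries were made with an unstranded or a stranded TruSeq kit. For the kit of each library, the counter and its strand setting, the value is not given in the sources used here. GENCODE M21 names matched 52403 of 52636 identifiers, and the other 233 held at most 0.0446% of a library. No row lacked a gene.

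Libraries were grouped by the labelled genotype. Genes were filtered with filterByExpr by group, scaled with TMM and tested with edgeR 4.0.16 (R 4.3.3, glmQLFit and glmQLFTest, two-sided, Benjamini-Hochberg over all tested genes, threshold 0.05), first with all libraries and then without control 2. Steps were tested on simulated data. Standard errors are the log2 fold change divided by the square root of F. The members and gene lists were chosen with earlier results of these data known. Library values were printed for called members averaging at least 5 CPM and the 4 most abundant uncalled members, and for up to 3 called genes per list, ranked by fold change; exceptions are named as such. Some list genes that this rule selects are counted but not reported here by name. The alternatives used DESeq2 1.42.0, limma 3.58.1 voom, other scalings and filters, a block, a sex term, a threshold of 0.01 and leaving out each library. Intervals and limits for counts of 0 cover counting error only.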

Additional observations from a re-analysis of the deposited data

How the results depend on the processing

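With all libraries, 10 members and 3437 genes were called. RLE scaling, library sizes alone, DESeq2, limma voom and a filter of 1 CPM also gave 10 members, no filter or 10 summed counts gave 11 (Pgr added), and a sex term 7. A replicate block gave 4 members and 1844 genes, and a threshold of 0.01 gave 3 members and 1256 genes. Leaving out 1 library gave 3 to 22 members and 1351 to 7128 genes, the highest without control 2. Deviations of the libraries from their group means correlated at r = -0.17, 0.16 and 0.25 for numbers 1, 2 and 3. Not every library correlated best with its own number. Such deviations depend on each other within a group of 3, and control 2 stood apart, so this check cannot decide pairing. The block rests on a shared number alone. Under the block Nr1h2, Nr1h3, Rxra, Nr2c2, Nr2f1 and Rorb did not pass, with adjusted p of 0.0505 to 0.0922 (edgeR) and log2 fold changes of 0.34, 1.58, 0.44, 0.39, -1.64 and 3.17, against 0.34, 1.49, 0.43, 0.39, -1.64 and 2.92 without it. Under the sex term Nr2c2, Nr2f1 and Rorb did not pass (0.37, -1.63 and 2.93). As control 2 was the only female control, that term also takes up part of what sets control 2 apart. Without control 2, alternatives gave 16 to 22 members, 20 of them with the block. A sex term was not fitted there.

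Library sizes alone moved the median of all genes by 0.09, and by 0.13 without control 2, and gave 66.4% of calls as higher against 52.8% with TMM, with members at 9 higher and 1 lower in both. Members that changed sign were uncalled with all libraries. The log2 fold change of Nr4a1 became 0.067 with library sizes alone, 1.15 with voom, 0.00367 without a filter, 0.00132 with 10 summed counts, 1.23 with the block, 0.45 with the sex term, 0.03 without knockout 3 and 2.39 without control 2. That of Nr4a2 became 0.40 with voom, 0.43 with the block and 1.44 without control 2, and that of Vdr 1.16 without control 2. Rarg became -0.14 without control 1, -0.06 without control 3 and -0.00212 with the sex term, Nr2f6 -9.59e-04 without control 1 and -0.045 without knockout 3, and Nr5a2 0.00171 with the sex term. Leaving out 1 library gave ranges of -0.52 to 2.39 for Nr4a1, -1.04 to 1.44 for Nr4a2, -1.93 to 1.16 for Vdr, -0.14 to 0.41 for Rarg and -0.045 to 0.19 for Nr2f6. The cause was not tested. Depth limits the rarest members: Esrrb, Ppara, Esr2, Esrrg and Pgr, with 10 to 51 counts, did not pass the filter with all libraries, and without a filter Pgr was called and the other 4 were not.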
